A study of Mus musculus with 43 samples.

Results

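The 39 genes described here encode proteins of the cardiac sarcomere and Z-disc, without the myosins, and were taken from the count table by name: all 39 were found among its 57010 genes. By role they are 9 genes of the thin filament, 4 of titin, the M-band and the thick filament's binding protein, 14 of the Z-disc, 5 that link it to the membrane and neighbouring cells, 5 of assembly and turnover, and 2 regulators bound to titin. Bulk RNA-seq was made from mice carrying the Q150X allele of Vegfa, a stop codon placed by CRISPR/Cas9 in the gene of a growth factor that drives vessel formation, and from wild-type (WT) mice. The study asked how the allele acts on the heart at homeostasis and after myocardial infarction (MI). Whole-heart libraries comprise 3 Q150X and 3 WT at homeostasis, 4 and 4 at day 7 after MI, and 4 and 3 at day 30. Cardiomyocyte libraries comprise 3 Q150X and 3 WT at day 3 after MI and 3 and 3 at homeostasis, and endothelial libraries 2 and 2 at day 3 and 3 and 3 at homeostasis. Every mutant library is labelled Q150X, which the design text marks HO. The sources used here do not give strain, sex, age or the type of MI surgery, nor whether replicates are separate animals. P-values then measure the spread between these samples, which may be technical.

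In the sarcomere, actin-based thin filaments slide past myosin thick filaments, troponin and tropomyosin switch the thin filament on with calcium, and titin spans from the Z-disc to the M-band. The Z-disc anchors thin filaments through alpha-actinin and carries proteins that sense stretch. In injured or overloaded hearts a few genes of this group, among them Ankrd1 and the skeletal actin gene Acta1, are known to rise, whereas many genes of contraction are known to fall. Ankrd1, Acta1, Xirp1, Xirp2, Flnc and Trim63 are grouped here as the 6 stress-linked members, and the other 33 as structural.

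Several members carry in their promoters the CArG box, the site of serum response factor, or the letters CATTCC, the core of the M-CAT element bound by TEAD factors. RefSeq promoters (build GRCm38.p6) were found for 31 of the 39 members. Searched on both strands over the 250 bases before the start, a CArG box was present for 6 members (Acta1, Actc1, Fhl2, Ldb3, Myom1 and Nebl) and in 1.47% of all 32851 promoters. CATTCC was present for 12 members and in 12.6% of all promoters. The 4 windows below hold the 150 bases before the start on the minus strand and belong to the genes the results turn on: Actc1 and Fhl2, which fell at day 7, Ankrd1, which rose at every time, and Acta1, which passed no test. Capitals mark the CArG box in the first 3 and, in Ankrd1, CATTCC as read from the other strand.
Actc1 (chr2:114052876-114053025): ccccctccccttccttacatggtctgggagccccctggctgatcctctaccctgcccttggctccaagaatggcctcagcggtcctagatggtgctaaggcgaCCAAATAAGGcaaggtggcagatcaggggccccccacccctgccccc
Fhl2 (chr1:43196762-43196911): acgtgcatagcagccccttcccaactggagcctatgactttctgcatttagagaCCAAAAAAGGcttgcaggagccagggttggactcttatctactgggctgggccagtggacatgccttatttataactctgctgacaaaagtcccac
Acta1 (chr8:123894776-123894925): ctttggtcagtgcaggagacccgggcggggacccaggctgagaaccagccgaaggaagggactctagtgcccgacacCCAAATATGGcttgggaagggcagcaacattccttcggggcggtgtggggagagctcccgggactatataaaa
Ankrd1 (chr19:36119845-36119994): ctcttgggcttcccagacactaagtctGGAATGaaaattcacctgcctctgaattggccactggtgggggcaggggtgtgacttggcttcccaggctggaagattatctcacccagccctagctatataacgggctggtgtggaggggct
Among these windows, that of Acta1 holds CATTCC as well as the CArG box. These matches describe the letters only.

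Levels are given as CPM, each gene's counts relative to the library's total, on library sizes scaled by TMM within each compartment. Changes are log2 fold changes ± SE from edgeR's quasi-likelihood test, and a gene was called at an adjusted p under 0.05 (Benjamini-Hochberg, all genes tested in the compartment). All 39 members passed the filter on low counts in hearts and in cardiomyocytes. Libraries held 25948706 to 37356177 counts in hearts, 25035490 to 42246348 in cardiomyocytes and 32008175 to 45243608 in endothelial cells. Vegfa stood at 149.7 to 621 CPM in Q150X hearts and 163 to 655 CPM in WT hearts, and gene counts cannot tell the mutant transcript from the normal one. Some libraries stood apart. Homeostasis heart libraries 1 held the atrial light chain Myl7 at 468 CPM (Q150X) and 525 CPM (WT), against at most 0.0336 CPM in the other homeostasis hearts. WT heart library 4 of day 7 held 467 CPM of placental Tpbpa. Results in hearts were also computed without these 3 libraries.

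The members made up a sizeable part of the RNA of heart and cardiomyocyte libraries. Their summed share of all counts was 4.31% to 6.22% in hearts, 4.10% to 6.18% in cardiomyocytes and 0.0346% to 0.241% in endothelial cells. Genes of the mitochondrial genome held 21.8% to 33.7%, 33.1% to 49.95% and 1.73% to 35.5% of the counts in these 3. Of the counts without them, the members' share was 5.71% to 8.35% in hearts, 8.19% to 9.43% in cardiomyocytes and 0.0359% to 0.339% in endothelial cells. Per kilobase of exon, the cardiac actin gene Actc1 stood highest in hearts at homeostasis, at 8564 CPM per kilobase in Q150X and 7142 in WT. The calcium-binding troponin subunit Tnnc1 and the inhibitory subunit Tnni3 took the next places at 1714 and 1698 in Q150X hearts, and at 1535 and 1569.8 in WT hearts. Pdlim3, a PDZ and LIM protein of the Z-disc, stood lowest at 3.49 and 3.63. Actc1 was first in 13 of the 14 groups and second in Q150X endothelial cells at homeostasis.

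At day 7 after MI a subset of thin-filament genes fell in whole hearts of both genotypes while others rose. In Q150X hearts 4 members were higher and 13 lower than at homeostasis, against 26.0% of all 17845 genes called (13.8% higher and 12.3% lower). In WT hearts 5 were higher and 5 lower, against 13.7% of all genes (7.65% and 6.07%). The median change over the members was -0.22 in Q150X (0.06 over all genes) and -0.02 in WT (0.05). Of the members called, 9 were shared and moved the same way, which is 9 of the 17 in Q150X and 9 of the 10 in WT: Lmod3, Actc1, Fhl2, Tmod1 and Unc45b fell, and Ankrd1, Trim63, Lmod2 and Myom2 rose. In bulk samples fewer cells of a type and less RNA per cell cannot be told apart.

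Lmod3, a leiomodin that nucleates and lengthens thin filaments, fell most. Its level in Q150X hearts was 128, 98.2 and 102 CPM at homeostasis, 27.8, 23.0, 24.2 and 31.1 CPM at day 7, and 85.5, 86.0, 62.9 and 81.2 CPM at day 30. WT hearts held 79.6, 95.7 and 108 CPM at homeostasis, 32.4, 29.3, 38.3 and 31.7 CPM at day 7, and 112, 73.7 and 88.3 CPM at day 30. All 8 day 7 libraries lay below every other heart library. The day 7 change was -2.04 ± 0.16 in Q150X (adjusted p = 3.75e-07) and -1.52 ± 0.16 in WT (adjusted p = 9.10e-06). From day 7 to day 30, a comparison that shares the day 7 libraries, Lmod3 rose by 1.57 ± 0.15 in Q150X and 1.47 ± 0.16 in WT. At day 30 against homeostasis it was -0.47 ± 0.16 in Q150X (adjusted p = 0.0326), a call lost without the libraries that stand apart (-0.34, adjusted p = 0.0926), and -0.05 in WT.

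Actc1, the main actin of heart thin filaments, followed the same course. In Q150X hearts it stood at 20036, 10991 and 10541 CPM at homeostasis, at 5743, 3624, 4228 and 4611 CPM at day 7, and at 10019.9, 9938, 7587 and 11651 CPM at day 30. WT hearts had 10756, 13232 and 10682 CPM at homeostasis, 4797, 5621, 4984 and 3193 CPM at day 7, and 11686, 10879 and 10402 CPM at day 30. The day 7 libraries did not overlap with those of the other times in either genotype. The fall at day 7 was -1.61 ± 0.23 in Q150X (adjusted p = 6.23e-05) and -1.31 ± 0.22 in WT (adjusted p = 0.00075), and the rise by day 30 was 1.11 ± 0.21 and 1.24 ± 0.22. Among member counts alone, a share that needs no scaling between libraries, Actc1 made up 18.7% to 27.6%, 8.85% to 11.3% and 19.9% to 21.2% at homeostasis, day 7 and day 30 in Q150X. In WT it made up 19.3% to 23.4%, 7.78% to 11.7% and 20.1% to 21.5%. In isolated cardiomyocytes at day 3 Actc1 was called in neither genotype. It stood at 8613 to 9892 CPM there in WT, against 7284 to 11098 CPM at homeostasis. Q150X cardiomyocytes had 9124 to 10193 CPM, against 10229 to 11987 CPM.

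Fhl2, a LIM protein bound to titin, had 1766, 1453 and 1539.8 CPM in Q150X hearts at homeostasis, 833, 541, 494 and 582 CPM at day 7, and 1140.1, 1131, 948 and 1156 CPM at day 30. In WT hearts it had 839.7, 1649 and 1489 CPM at homeostasis, 601, 772, 614 and 490.4 CPM at day 7, and 1249.5, 1110.0 and 1212 CPM at day 30. Day 7 was the lowest time in both genotypes, with no overlap with homeostasis. The day 7 change was -1.37 ± 0.20 in Q150X (adjusted p = 0.00011) and -1.10 ± 0.20 in WT (adjusted p = 0.00148), and from day 7 to day 30 Fhl2 rose by 0.84 ± 0.19 and 0.94 ± 0.20. In isolated cardiomyocytes at day 3 Fhl2 was called in neither genotype.

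Tmod1, which caps the pointed end of thin filaments, fell at day 7 by 1.24 ± 0.17 in Q150X and 0.80 ± 0.17 in WT. Its mean was 225 ± 56.9, 94.98 ± 21.1 and 139 ± 20.3 CPM at the 3 times in Q150X and 197 ± 7.97, 113 ± 17.2 and 170.2 ± 7.75 CPM in WT (SD). Another gene, Tstd2, overlaps 32.6% of the exon bases of Tmod1, and the counting strand is not stated, so its reads are uncertain. Unc45b, the chaperone that folds myosin heads, fell at day 7 by 0.93 ± 0.13 in Q150X and 0.75 ± 0.13 in WT. It was also lower in Q150X at day 30 (-1.01 ± 0.13 against homeostasis, adjusted p = 5.76e-05). In WT its day 30 value was -0.46 ± 0.14 (adjusted p = 0.0435), a call lost without any 1 of 5 of the 6 libraries compared (-0.53 to -0.34).

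Further members fell in Q150X hearts at day 7. Synpo2l, a Z-disc protein related to synaptopodin, was at -1.35 ± 0.39, but its call was lost without Q150X homeostasis library 1 (-0.96) or Q150X day 7 library 3 (-1.18). Mybpc3, the cardiac myosin-binding protein, was at -0.88 ± 0.23, and its call was lost without that same homeostasis library (-0.67, adjusted p = 0.0549). Flnc, an actin cross-linker of the Z-disc, was at -0.84 ± 0.30 (adjusted p = 0.0425), a call lost without any 1 of 5 libraries. Trim55, a ubiquitin ligase of the muscle RING-finger family, fell by 0.82 ± 0.18, and Nebl, a nebulin relative that binds thin filaments at the Z-disc, by 0.70 ± 0.18. Fhod3, a formin of thin-filament assembly, Tnnc1 and Tpm1 (tropomyosin) fell by 0.45 to 0.60, and these 3 turned to the other side when hearts were scaled to other cardiomyocyte genes. Without the libraries that stand apart, Fhod3 (-0.43, adjusted p = 0.136), Tnnc1 (-0.28, adjusted p = 0.119), Synpo2l (-0.96) and Flnc (-0.60) were not called in Q150X, and Nebl (-0.58 ± 0.18) and Trim55 (-0.66 ± 0.17) were called lower in WT. The day 7 counts then were 6 higher and 10 lower in Q150X (28.8% of all genes called) and 7 and 7 in WT (17.8%).

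The members that rose at day 7 came from several roles. Trim63, the muscle RING-finger ligase MuRF1 that marks sarcomere proteins for breakdown, had 218, 189.6 and 180.4 CPM in Q150X hearts at homeostasis, 242, 397, 475 and 411 CPM at day 7, and 134, 115, 101 and 142 CPM at day 30. WT hearts had 125, 176 and 182 CPM at homeostasis, 356, 256, 589 and 349.9 CPM at day 7, and 159, 152 and 162 CPM at day 30. Every day 7 library was above every library of the other times. The rise was 0.96 ± 0.24 in Q150X (adjusted p = 0.00613) and 1.27 ± 0.24 in WT (adjusted p = 0.00178). From day 7 to day 30 Trim63 fell by 1.63 ± 0.22 and 1.30 ± 0.24.

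Lmod2, the other cardiac leiomodin, moved against Lmod3. It had 497, 643 and 569 CPM in Q150X hearts at homeostasis, 839.6, 858, 1148 and 1164 CPM at day 7, and 533, 561, 394 and 677 CPM at day 30. WT hearts had 437, 686 and 601 CPM at homeostasis, 1114, 1069, 1695 and 850.2 CPM at day 7, and 654, 689 and 739 CPM at day 30. Every day 7 library lay above all libraries of the other times. The rise was 0.82 ± 0.22 in Q150X (adjusted p = 0.0105) and 1.04 ± 0.22 in WT (adjusted p = 0.00416). Within a library, the count ratio of Lmod2 to Lmod3 was 3.88 to 6.55, 30.2 to 47.4 and 6.23 to 8.34 at homeostasis, day 7 and day 30 in Q150X, and 5.49 to 7.16, 26.9 to 44.3 and 5.85 to 9.35 in WT. The day 7 ratios lay above all others, and a ratio within a library does not depend on scaling.

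Myom2, an M-band protein, rose at day 7 by 0.66 ± 0.19 in Q150X and 0.98 ± 0.19 in WT. The Q150X call was lost without Q150X homeostasis library 1 (0.42, adjusted p = 0.0772). Its mean was 1336 ± 423, 2109 ± 273 and 1341 ± 273 CPM at the 3 times in Q150X, and 1187 ± 89.2, 2335 ± 230 and 1518 ± 37.1 CPM in WT (SD). Myot, a Z-disc immunoglobulin-domain protein, rose in WT alone by the threshold (0.97 ± 0.28, adjusted p = 0.0274), a call lost without any 1 of 4 libraries. In Q150X its value was 0.68, and the difference between the genotypes' changes was not called.

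**Figure D1:**
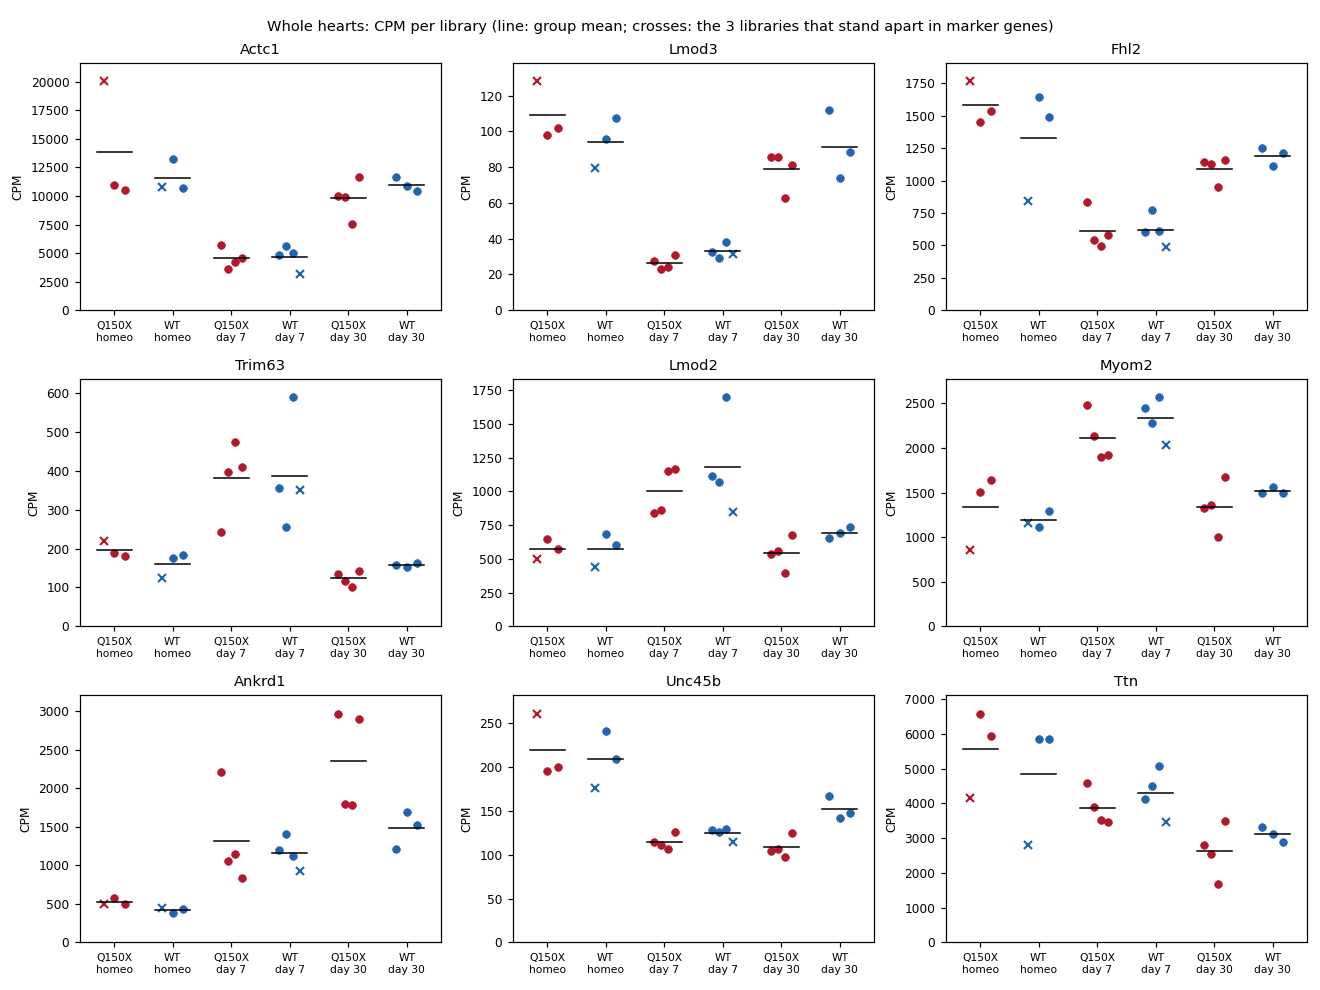
CPM of 9 members in each whole-heart library at homeostasis, day 7 and day 30, with Q150X left of WT at each time. Points are libraries, black lines are group means and crosses are the 3 libraries that stand apart; Lmod3 and Actc1 are lowest at day 7, Trim63 and Lmod2 highest at day 7, and Ankrd1 is lowest at homeostasis.

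Ankrd1, a cardiac ankyrin-repeat protein that binds titin and is a standard marker of a stressed heart, was, with all libraries kept, the only member called higher at every time after MI in both genotypes; without those that stand apart, Pdlim3 and Des were as well. It had 504, 574 and 495 CPM in Q150X hearts at homeostasis, 2212, 1059, 1151 and 837 CPM at day 7, and 2970.4, 1797, 1779 and 2895 CPM at day 30. WT hearts had 447, 386 and 430.2 CPM at homeostasis, 1193, 1409, 1122 and 921 CPM at day 7, and 1217, 1696 and 1520.2 CPM at day 30. All libraries after MI were above all at homeostasis. The changes were 1.33 ± 0.27 in Q150X and 1.46 ± 0.27 in WT at day 7, and 2.17 ± 0.28 (adjusted p = 6.11e-05) and 1.81 ± 0.29 (adjusted p = 0.000839) at day 30. Between day 7 and day 30 it rose by 0.84 ± 0.24 in Q150X, a call lost without Q150X day 7 library 4 (0.68, adjusted p = 0.0501), and was at 0.35 in WT, where the change was not called.

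Those heart calls that held under 3 other scalings of the libraries are listed here, because the split of the members depends on scaling. The other scalings were DESeq2 size factors, library size alone, and the summed counts of 12 cardiomyocyte genes outside the sarcomere. Of these 12, Atp2a2 weighs most. It stood at 11155 to 15198 CPM in WT hearts at homeostasis, where the sum was 25744 to 34026 CPM. In Q150X hearts it stood at 14293 to 17844 CPM at homeostasis and 5018 to 7920 CPM at day 30. At day 7 the calls of Actc1, Ankrd1, Fhl2, Lmod2, Lmod3, Myom2, Trim63 and Unc45b held in both genotypes under all 3, with Tmod1 in Q150X and Myot in WT. The split in Q150X, 4 higher and 13 lower, became 8 and 8 by library size and 18 and 5 relative to other cardiomyocyte genes. In WT, 5 and 5 became 16 and 4 relative to other cardiomyocyte genes. That scaling moves the median of all genes by 0.66 in Q150X and 0.40 in WT at day 7, and by 0.70 in Q150X and 0.14 in WT at day 30. Library size alone moves it by 0.22 and 0.06 at day 7. Splits under other scalings, here and below, are given without the share of all genes called. They show how the counts depend on scaling and are no result about the members alone.

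At day 30 the genotypes' counts were apart. In Q150X hearts 2 members were higher and 17 lower than at homeostasis, against 29.7% of all genes called (15.6% higher and 14.2% lower), with a median of -0.44 (-0.03 over all genes). In WT hearts 1 was higher and 1 lower, Ankrd1 and Unc45b, against 8.93% of all genes (5.45% and 3.49%), with a median of -0.05 (-0.02). The WT count became 5 higher and 6 lower without the libraries that stand apart (34.0% of all genes called) and 7 in all without WT homeostasis library 1 alone. In Q150X it became 5 and 15 without them (44.3% of all genes). By library size the Q150X split was 3 and 8, and relative to other cardiomyocyte genes 12 higher and 2 lower. The share of all genes called under these scalings is not given here. Only Ankrd1, Pdlim3, Cmya5 and Unc45b held their Q150X calls under all 3 other scalings.

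Ttn, the gene of the giant spring protein titin, showed the size of these falls. It had 4164, 6588 and 5953 CPM in Q150X hearts at homeostasis, 4576, 3905, 3508 and 3457 CPM at day 7, and 2802, 2549.5, 1693 and 3494 CPM at day 30. WT hearts had 2791, 5866 and 5866 CPM at homeostasis, 4132, 4489, 5069 and 3478 CPM at day 7, and 3334, 3111 and 2882 CPM at day 30. The Q150X day 30 libraries lay below all Q150X homeostasis libraries. In WT, homeostasis library 1, which stands apart, lay below all 3 of day 30. The change at day 30 was -1.08 ± 0.24 in Q150X (adjusted p = 0.00288) and -0.64 in WT, where it was called only without the libraries that stand apart (-0.91 ± 0.21, adjusted p = 0.00258). At day 7 Ttn was at -0.53 in Q150X and -0.17 in WT, both not called, and both above 0 (0.11 and 0.27) relative to other cardiomyocyte genes. Without the libraries that stand apart the Q150X day 7 value was called (-0.70 ± 0.20, adjusted p = 0.0121).

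By role, the Q150X day 30 falls were 5 of 9 thin-filament, 2 of 4 titin, M-band and thick-filament, 5 of 14 Z-disc, 1 of 5 linkage and 4 of 5 assembly and turnover genes. Of all genes, 14.2% were called lower. Cmya5, a large protein of the costamere and Z-disc, fell by 1.09 ± 0.22, though other genes overlap 21.7% of its exon bases. Mypn (myopalladin), which binds alpha-actinin and Ankrd1, fell by 0.95 ± 0.17, Fhod3 by 0.92 ± 0.21, Nebl by 0.78 ± 0.18 and Myom1, an M-band cross-linker, by 0.78 ± 0.20. Tmod1 fell by 0.70 ± 0.17, Tnni3 by 0.66 ± 0.18, Trim55 by 0.63 ± 0.18 and Ldb3, a PDZ protein of the Z-disc, by 0.63 ± 0.17. Trim63 was at -0.67 ± 0.23, a call lost without any 1 of 6 libraries. The remaining calls, Actn2 (alpha-actinin), Tnnt2 (the tropomyosin-binding troponin), Lmod3, Tpm1 and the small linker Smpx, were at -0.59 to -0.38. Of these 17 falls, 10 turned to the other side relative to other cardiomyocyte genes: Actn2, Ldb3, Lmod3, Smpx, Tmod1, Tnni3, Tnnt2, Tpm1, Trim55 and Trim63. Without the libraries that stand apart, Ldb3, Trim63, Lmod3 and Actn2 were no longer called.

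Pdlim3 rose in Q150X hearts at day 30 by 1.38 ± 0.36 (adjusted p = 0.00806), to 39.8, 48.6, 64.7 and 33.8 CPM, against 28.3, 12.4 and 13.3 CPM at homeostasis, without overlap. The call was lost without Q150X homeostasis library 2 or 3 (1.17 and 1.20, adjusted p = 0.0506 and 0.0502). The highest homeostasis library is number 1, which stands apart. Without such libraries Pdlim3 was called higher in all 4 heart comparisons of MI with homeostasis, at 1.43 ± 0.25 in Q150X and 1.60 ± 0.26 in WT at day 7, and 1.87 ± 0.26 and 1.56 ± 0.26 at day 30. The intermediate filament gene Des and the ring-finger gene Trim54 were likewise called higher in all 4 only then, Des by 0.58 to 0.91 and Trim54 by 0.816 to 1.001. Another gene, Gm15469, overlaps 26.6% of the exon bases of Trim54, so its reads are uncertain. Tcap, the titin cap protein, had 2672, 366 and 721 CPM in Q150X hearts at homeostasis and 1435, 427 and 533 CPM in WT, with library 1 highest in both. It was called at day 30 only without those libraries, at 0.96 ± 0.34 in Q150X and 1.47 ± 0.36 in WT.

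**Figure D2:**
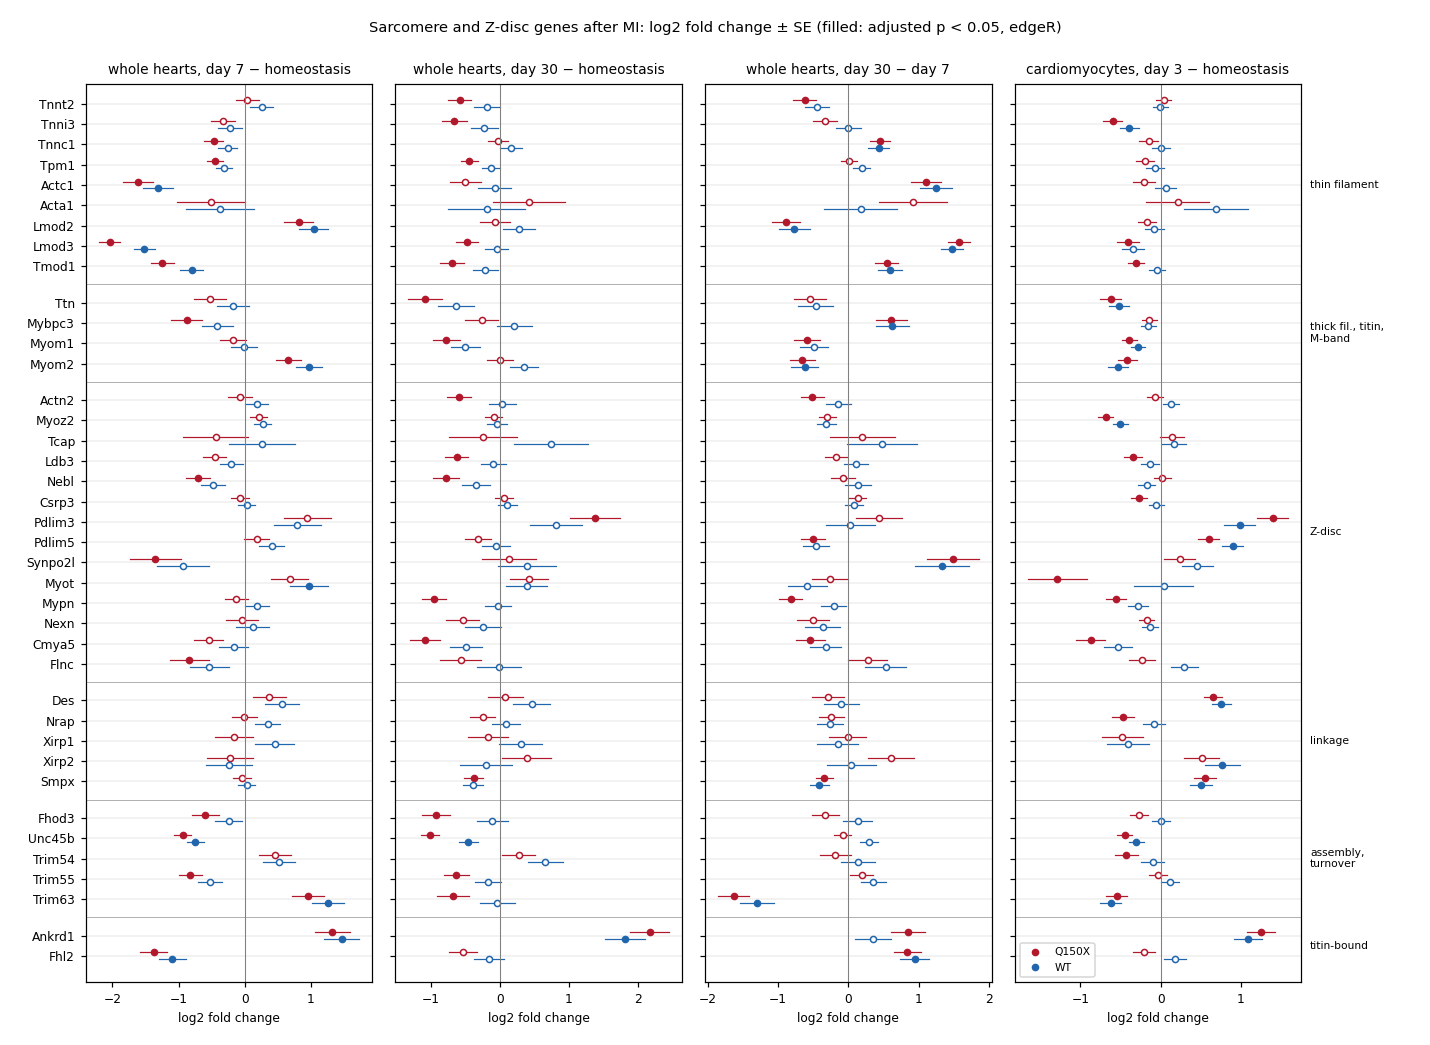
Log2 fold change ± SE of all 39 members, grouped by role, in 4 comparisons (panels) with Q150X in red and WT in blue. Filled points were called at an adjusted p under 0.05; at day 7 Lmod3, Actc1, Fhl2 and Tmod1 lie to the left and Ankrd1, Trim63 and Lmod2 to the right in both genotypes, and in cardiomyocytes Ankrd1, Pdlim3, Pdlim5 and Des lie to the right.

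Between day 7 and day 30 the members moved apart again. In Q150X hearts 8 were higher and 10 lower at day 30 (31.4% of all genes called, 14.9% higher and 16.5% lower), and in WT 7 were higher and 4 lower (30.0%, 13.9% and 16.1%). All 11 members called in WT were among the 18 called in Q150X, in the same direction. Lmod3, Actc1, Fhl2, Tmod1, Synpo2l, Mybpc3 and Tnnc1 were higher, and Trim63, Lmod2, Myom2 and Smpx lower. Synpo2l rose by 1.48 ± 0.37 in Q150X and 1.33 ± 0.39 in WT. Mybpc3 (0.61 ± 0.22 and 0.62 ± 0.23) and Tnnc1 (0.45 ± 0.14 and 0.43 ± 0.15) were smaller, and the Mybpc3 call was lost without any 1 of 6 libraries in Q150X and 5 in WT. In WT the calls of Tnnc1 (5 libraries), Myom2 and Smpx (4 each), Lmod2 and Tmod1 (2 each) and Synpo2l (library 3 of day 30) were also lost without 1 library. Lmod2 fell by 0.89 ± 0.20 and 0.77 ± 0.22, and Myom2 by 0.65 ± 0.18 and 0.62 ± 0.19. In Q150X alone by the threshold, Mypn fell by 0.82 ± 0.16, Tnnt2 by 0.62 ± 0.16 and Myom1 by 0.59 ± 0.18, and Cmya5 (-0.54), Actn2 (-0.51) and Pdlim5 (-0.50) were also lower. The Q150X calls of Cmya5 (-0.61 to -0.38), Tmod1 (0.45 to 0.48) and Myom1 (-0.49 to -0.48) were lost without any 1 of 6, 3 and 2 libraries. The WT split of 7 and 4 became 6 and 8 by library size, 4 and 14 relative to other cardiomyocyte genes, and 6 and 10 without the libraries that stand apart.

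In isolated cardiomyocytes at day 3, Ankrd1, Pdlim3, Pdlim5, Des and Smpx rose in both genotypes. In Q150X 5 members were higher and 16 lower than at homeostasis, against 27.0% of all 15169 genes called (14.9% higher and 12.1% lower). In WT 6 were higher and 7 lower, against 17.4% (10.1% and 7.22%). The medians were -0.21 in Q150X and -0.05 in WT (-0.00 and -0.01 over all genes). The 12 members called in both, all in the same direction, were 12 of the 21 in Q150X and of the 13 in WT. The rises of these 5 held in both genotypes under all 3 other scalings. No fall but that of Cmya5 in Q150X did, and the splits became 8 and 3 (Q150X) and 13 and 0 (WT) by library size and 20 and 1 and 15 and 0 relative to other cardiomyocyte genes. Those scalings move the median of all genes by 0.27 and 0.31 and by 0.58 and 0.35. The share of all genes called under them is not given, so these splits are no result about the members alone.

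Ankrd1 had 1157, 2048 and 1521 CPM in Q150X cardiomyocytes at day 3, against 695, 650.4 and 645 CPM in Q150X at homeostasis. In WT it had 1942, 1741 and 1351 CPM at day 3, against 839, 801 and 730.0 CPM at homeostasis. No library of day 3 overlapped with homeostasis, and the rise was 1.25 ± 0.17 (adjusted p = 0.00023) and 1.09 ± 0.17 (adjusted p = 0.000954). Pdlim3 had 23.7, 17.5 and 31.9 CPM at day 3 against 9.24, 8.42 and 10.2 CPM at homeostasis in Q150X, and 14.8, 19.3 and 17.1 CPM against 7.05, 9.86 and 8.95 CPM in WT. It rose by 1.395 ± 0.194 (adjusted p = 0.000191) and 0.98 ± 0.19 (adjusted p = 0.00344), again without overlap. Pdlim3 stood at 4.21 to 88.7 CPM in endothelial libraries, so cardiomyocytes are not its only source.

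Pdlim5, a PDZ and LIM scaffold that binds alpha-actinin, had 957, 1152 and 1447 CPM at day 3 against 846, 754 and 753 CPM at homeostasis in Q150X. WT cardiomyocytes had 1313, 1218 and 1199.6 CPM against 735, 612 and 659.9 CPM. The groups did not overlap, and Pdlim5 rose by 0.60 ± 0.13 in Q150X and 0.89 ± 0.13 in WT. Des, the gene of desmin, stood at 2458 ± 316 CPM at day 3 and 1564 ± 146 CPM at homeostasis in Q150X, and at 2429 ± 261 and 1442 ± 105 CPM in WT (SD, n = 3 each). It rose by 0.65 ± 0.12 and 0.75 ± 0.12. Smpx rose by 0.55 ± 0.13 and 0.50 ± 0.13. Xirp2, an actin-binding repeat protein of the intercalated disc, rose in WT by 0.77 ± 0.21, a call lost without any 1 of 4 libraries, and was at 0.51 in Q150X. The Smpx call in WT was lost without homeostasis library 2 or day 3 library 1 (0.36 to 0.41).

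Among the falls, Ttn had 6509, 5501 and 4980.5 CPM at day 3 against 8765, 9097 and 8316 CPM at homeostasis in Q150X. WT had 5160.0, 7298 and 6346 CPM against 9525, 8757 and 8649 CPM. The groups did not overlap, and the values were -0.62 ± 0.13 in Q150X and -0.52 ± 0.13 in WT, where the call was lost without day 3 library 1 (-0.39). Myoz2, a calcineurin-binding Z-disc protein, fell by 0.69 ± 0.10 and 0.50 ± 0.10, and Tnni3 by 0.60 ± 0.12 and 0.39 ± 0.12. Unc45b (-0.45 ± 0.09 and -0.31 ± 0.09) and Myom1 (-0.39 ± 0.09 and -0.29 ± 0.09) were also lower and turned to the other side relative to other cardiomyocyte genes in both genotypes. The WT calls of Tnni3 (4 libraries), Unc45b and Myom1 (5 each) and the Q150X call of Nrap (4) were lost without any 1 of these libraries. In Q150X, Cmya5 fell by 0.87 ± 0.18, Mypn by 0.56 ± 0.12 and Nrap, an actin-binding protein of myofibril assembly, by 0.47 ± 0.14, the last 2 turning to the other side under that scaling. Myot was at -1.29 ± 0.37 there, with 38.6, 30.3 and 25.2 CPM at day 3 against 130.2, 41.6 and 58.5 CPM at homeostasis, and its call was lost without day 3 library 2 or 3 of Q150X. The other calls in Q150X, Trim54, Lmod3, Ldb3, Tmod1 and Csrp3, were at -0.43 to -0.27 and turned likewise.

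Trim63 and Myom2 were lower in cardiomyocytes at day 3 and higher in whole hearts at day 7. Trim63 had 188, 207 and 175 CPM at day 3 against 239, 308 and 288 CPM at homeostasis in Q150X cardiomyocytes (-0.55 ± 0.13). In WT it had 179.7, 197 and 229 CPM against 341, 255 and 336 CPM (-0.62 ± 0.13). Myom2 had 1541, 1366 and 1162 CPM against 1949, 1641 and 1835 CPM in Q150X (-0.42 ± 0.12), and 1235, 1239 and 1443 CPM against 1639, 2006 and 2023 CPM in WT (-0.53 ± 0.12). None of these groups overlapped. The Q150X values of both turned to the other side relative to other cardiomyocyte genes, and both WT calls were lost under a scaling. Fraction and day differ together here and cannot be told apart.

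**Figure D3:**
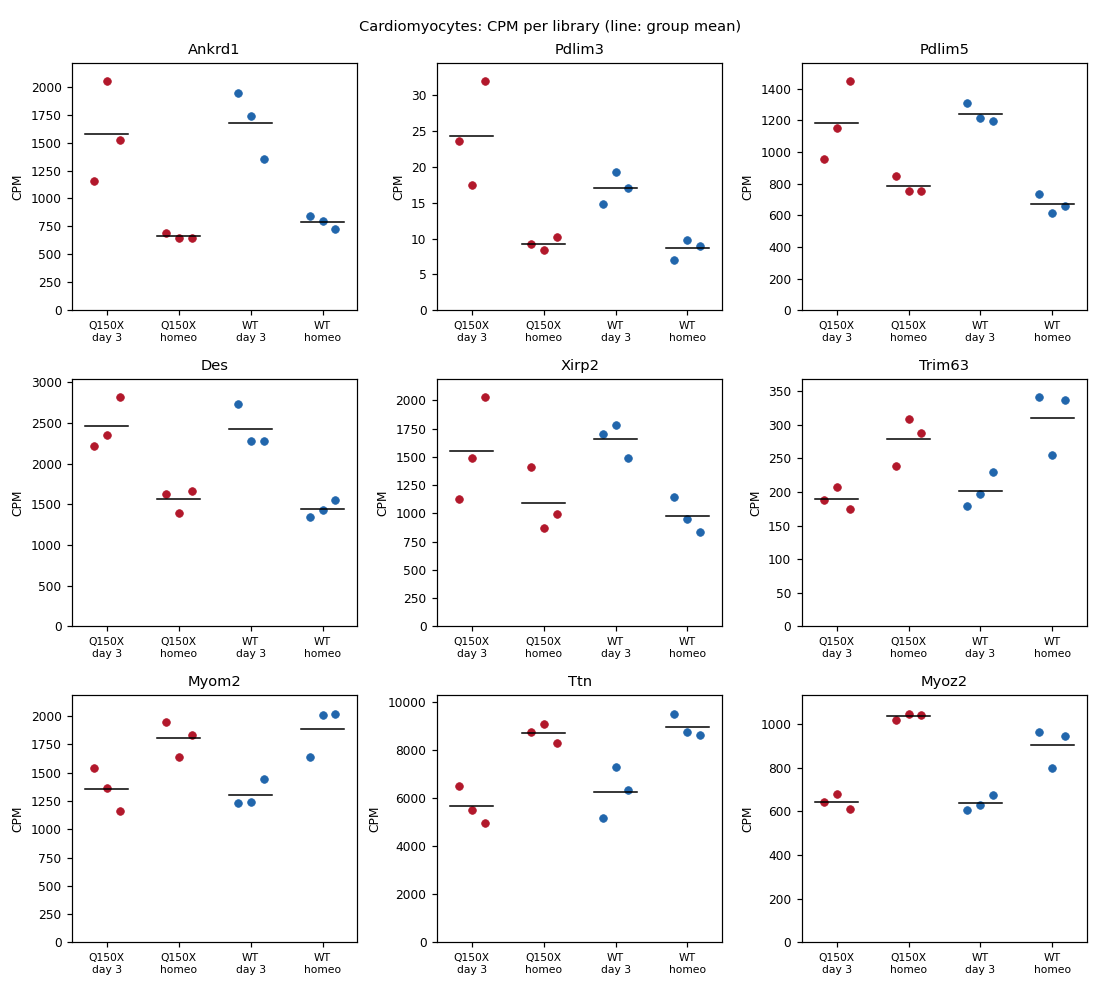
CPM of 9 members in each cardiomyocyte library, with day 3 left of homeostasis within each genotype and Q150X left of WT. Points are libraries and lines group means; Ankrd1, Pdlim3, Pdlim5 and Des are higher at day 3 without overlap, and Trim63, Myom2, Ttn and Myoz2 lower.

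Of the 6 stress-linked members, Ankrd1 alone was called higher in all of these comparisons of MI with homeostasis. In hearts at day 7, Ankrd1 and Trim63 were higher in both genotypes and Flnc lower in Q150X. At day 30, Ankrd1 was higher in both and Trim63 lower in Q150X. In cardiomyocytes at day 3, Ankrd1 was higher and Trim63 lower in both, and Xirp2 higher in WT. Xirp1, a relative of Xirp2, and Acta1 passed the test in none of the 16 comparisons, and nor did 2 structural members, Tcap and Nexn, an actin-binding Z-disc protein. Without the libraries that stand apart, Nexn was called lower at day 30, against homeostasis and against day 7, in both genotypes. The median change over the 6 in Q150X was -0.19 at day 7, 0.11 at day 30 and -0.01 in cardiomyocytes, and in WT it was 0.11, -0.02 and 0.49. Over the 33 structural members it was -0.33, -0.47 and -0.21 in Q150X, and -0.02, -0.06 and -0.07 in WT, with 12 falls and 2 rises called in Q150X and 5 and 3 in WT at day 7, and 16 and 1 in Q150X and 1 and 0 in WT at day 30. Among structural members, Lmod2, Myom2, Myot, Pdlim3, Pdlim5, Des and Smpx were each called higher in some comparison of MI with homeostasis. Some of them were also called lower elsewhere. Smpx was lower in Q150X hearts at day 30, Myom2 in cardiomyocytes of both genotypes and Myot in Q150X cardiomyocytes. The groups were set by a list chosen with earlier results of these data known, so setting them against each other is no test.

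Acta1, the skeletal actin that the heart uses in fetal life, spread widely between libraries. Its level in Q150X hearts was 811, 337 and 156 CPM at homeostasis, 583, 139, 322 and 181 CPM at day 7, and 726, 394, 520.3 and 679.5 CPM at day 30. WT hearts had 379, 519 and 317 CPM at homeostasis, 340.1, 454, 349.9 and 113 CPM at day 7, and 389.6, 287 and 386 CPM at day 30. All groups overlapped but those of day 30, where Q150X libraries lay above WT. Cardiomyocytes had 410.2, 540.2 and 406 CPM at day 3 against 571, 284 and 318 CPM at homeostasis in Q150X, and 599, 491 and 383 CPM against 501, 219 and 194 CPM in WT. Acta1 and Actc1 are close paralogs, and it is not known how the counting treated reads that fit both, so both levels are uncertain.

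The share of Acta1 in the counts of both actins was compared by exact permutation tests (two-sided, 11 comparisons). At day 7 it was 5.94% ± 2.70 against 2.77% ± 1.23 at homeostasis in Q150X hearts (SD, n = 4 and 3, exact p = 0.171), and 6.02% ± 1.79 against 3.35% ± 0.446 in WT (n = 4 and 3, exact p = 0.114). At day 30 it was 5.62% ± 1.32 in Q150X, against 2.77% ± 1.23 at homeostasis (n = 4 and 3, exact p = 0.114). The WT share at day 30 was 3.13% ± 0.512 (n = 3), against 3.35% ± 0.446 at homeostasis (n = 3, exact p = 0.6). Q150X against WT at day 30 gave exact p = 0.0571 (n = 4 and 3), the smallest that 4 against 3 libraries allow. After adjustment over the 11 comparisons the lowest p was 0.419. In cardiomyocytes the share was 4.48% ± 0.959 at day 3 and 3.44% ± 1.60 at homeostasis in Q150X, and 5.05% ± 1.19 and 3.17% ± 1.04 in WT, with 0.1 the smallest p that 3 against 3 allow. None passed.

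**Figure D4:**
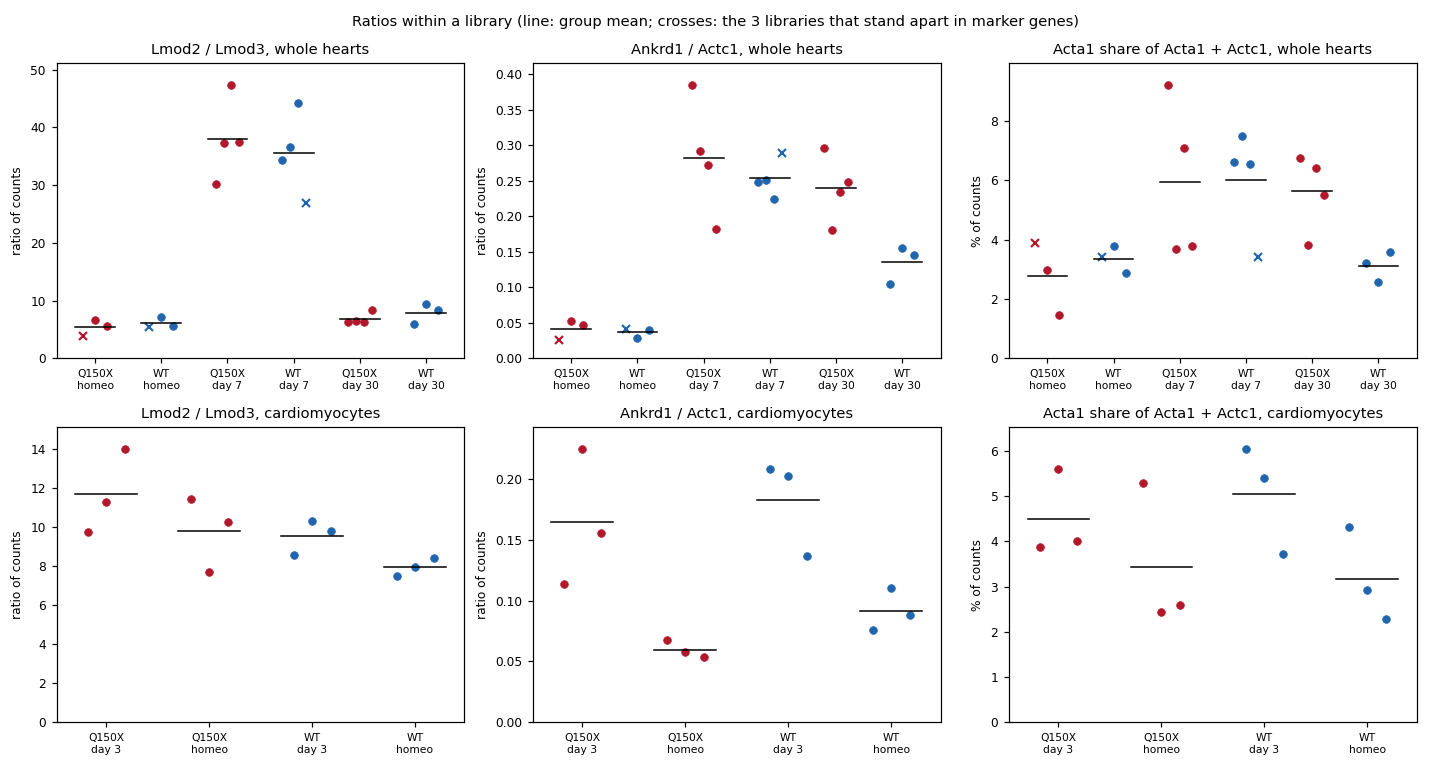
Count ratios within each library, hearts above (homeostasis, day 7 and day 30, Q150X left of WT) and cardiomyocytes below (day 3 left of homeostasis): Lmod2 over Lmod3, Ankrd1 over Actc1, and the Acta1 percentage of both actins. Points are libraries, lines group means and crosses the 3 libraries that stand apart; the Lmod2 over Lmod3 ratio is above 26 in all 8 hearts of day 7 and under 10 in all others.

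Between genotypes no member was called in any of the 5 direct comparisons. In hearts at homeostasis and day 7, 0 of 39 were called by edgeR, DESeq2 or voom and 0 had an unadjusted p under 0.05, and 0.0% of all genes were called. The smallest p were those of Fhod3 (0.34 ± 0.22), Mybpc3 (0.37 ± 0.25) and Mypn (0.25 ± 0.19) at homeostasis, and of Lmod3 (-0.31 ± 0.15), Myot (-0.42 ± 0.26) and Tmod1 (-0.25 ± 0.16) at day 7. The 95% intervals over the members reached from -0.98 to 1.70 at homeostasis and from -0.97 to 0.90 at day 7, with these outer bounds set by the genes of largest error.

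At day 30, 0 of 39 were called (0.443% of all genes), 7 had an unadjusted p under 0.05, DESeq2 called 2 (2.49% of all genes) and voom 4 (9.81%). Mypn was at 112 ± 23.9 CPM in Q150X and 179 ± 7.15 CPM in WT (-0.68 ± 0.17, adjusted p = 0.0929), and Unc45b at 108 ± 11.7 and 152 ± 13.2 CPM (-0.49 ± 0.13, adjusted p = 0.101; SD, n = 4 and 3). For both genes all 4 Q150X libraries lay below all 3 WT libraries. Both were called lower by DESeq2 (adjusted p = 0.0222 for Mypn and 0.0225 for Unc45b), by voom, without the libraries that stand apart (0.0184 and 0.0154; 3.91% of all genes called), and without Q150X library 4 of day 30 (0.0416 and 0.0459). Over 17 alternatives the changes were -0.80 to -0.31 for Mypn (adjusted p = 0.00516 to 0.344) and -0.56 to -0.10 for Unc45b (0.00317 to 0.497). Voom also called Actn2 and Ldb3 lower. Ankrd1 came next by p, at 0.68 ± 0.26 (adjusted p = 0.261). The 95% intervals over the members reached from -1.30 to 1.74.

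The side of 0 on which most members lay depended on the scaling. By TMM, 34 of 39 lay above 0 at homeostasis (median 0.19), 33 below 0 at day 7 (median -0.05) and 32 below 0 at day 30 (median -0.21, against 0.04 over all genes). Relative to other cardiomyocyte genes, 22, 28 and 33 lay above 0 at these times (medians 0.016, 0.050 and 0.17), and by library size alone 28, 22 and 16 did (medians 0.080, 0.013 and -0.053). These medians carry no test. The genotype difference of the MI change, tested as an interaction, called 0 members at day 7 and 0 at day 30 (0.0% of all genes in both), with 1 and 5 at an unadjusted p under 0.05 and 0 by DESeq2 and by voom. The smallest p were those of Lmod3 (-0.52 ± 0.23), Tmod1 (-0.45 ± 0.25) and Xirp1 (-0.61 ± 0.41) at day 7, and of Mypn (-0.93 ± 0.26, adjusted p = 0.327), Unc45b (-0.56 ± 0.19) and Fhod3 (-0.81 ± 0.30) at day 30. The larger Q150X count of falls at day 30 is therefore not shown to differ from the WT count.

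In cardiomyocytes the genotype comparisons called 0 members at homeostasis, at day 3 and for the difference of the day 3 change (0.0% of all genes in each). At an unadjusted p under 0.05 there were 8, 1 and 2, and DESeq2 and voom called 0 in each. At homeostasis the smallest p were those of Csrp3, the muscle LIM protein (0.31 ± 0.10), Fhl2 (0.44 ± 0.14) and Nebl (-0.30 ± 0.11). At day 3 they were those of Pdlim3 (0.52 ± 0.19), Cmya5 (-0.28 ± 0.18) and Lmod3 (-0.19 ± 0.13). For the difference they were those of Myot (-1.32 ± 0.52), Flnc (-0.52 ± 0.23) and Fhl2 (-0.39 ± 0.19).

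**Figure D5:**
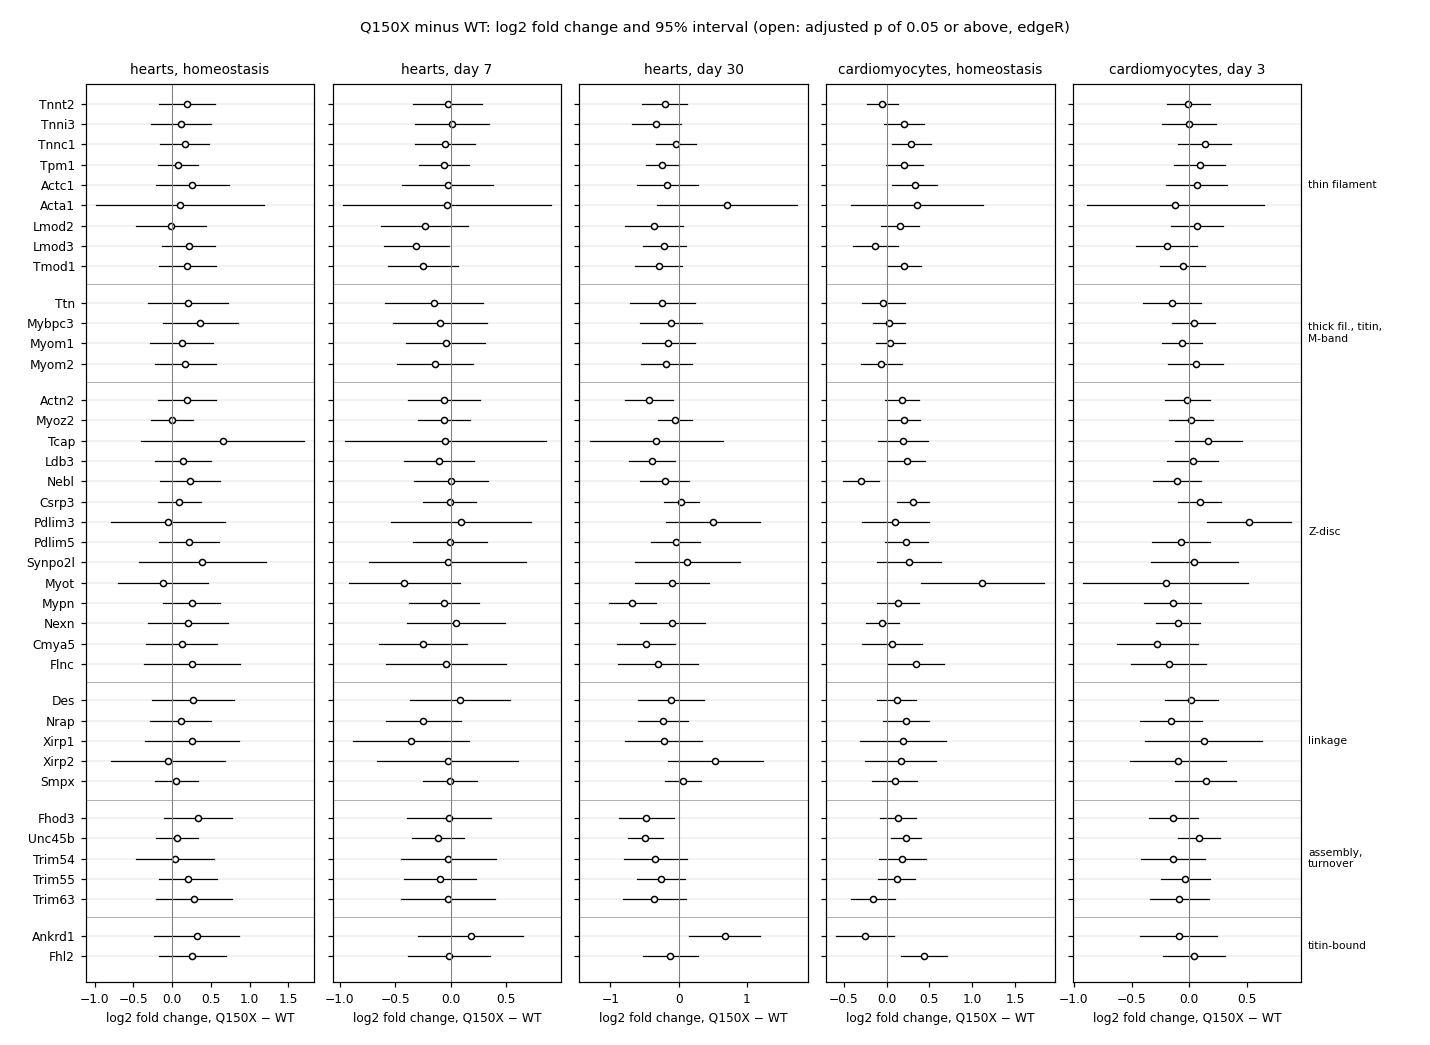
Log2 fold change of Q150X over WT with 95% intervals for all 39 members in hearts (homeostasis, day 7, day 30) and cardiomyocytes (homeostasis, day 3). Open points were not called, which holds for every member; at day 30 Mypn and Unc45b lie farthest from 0 for their error.

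Genes around the members were counted in the same way. Of all genes, 26.0% were called in Q150X hearts at day 7 and 13.7% in WT. At day 30 these shares were 29.7% and 8.93%, and in cardiomyocytes 27.0% and 17.4%. The counts of this list and of those below are to be read beside these shares. Of 26 other sarcomere genes, 1 was higher and 10 lower in Q150X hearts at day 7, and 1 and 4 in WT. Relative to other cardiomyocyte genes these splits became 9 and 1 in Q150X and 6 and 0 in WT. Smyd1, a methyltransferase of myofibril assembly, fell (-1.02 ± 0.18 and -0.71 ± 0.18), as did Palld (-0.88 ± 0.19 and -0.60 ± 0.19), while Fhl1, a LIM protein bound to titin, rose (0.65 ± 0.18 and 0.78 ± 0.18). At day 30, 1 was higher and 10 lower in Q150X, among them Speg (-0.75 ± 0.14), and 0 were called in WT, which became 9 and 2 in Q150X and 2 and 0 in WT under that scaling. In cardiomyocytes 6 were higher and 10 lower in Q150X and 6 and 4 in WT, which became 14 and 2 and 10 and 0, with Fhl1 highest (1.75 ± 0.21 and 1.82 ± 0.21).

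Of 16 skeletal, fetal and non-muscle paralogs, 14 were tested in hearts and 12 in cardiomyocytes. Non-muscle alpha-actinin Actn1 rose in cardiomyocytes at day 3 (2.33 ± 0.23 in Q150X and 2.18 ± 0.23 in WT), among 7 higher and 1 lower in Q150X and 6 and 0 in WT. Smooth-muscle actin Acta2 fell in hearts at day 7 (-1.59 ± 0.34 and -1.21 ± 0.33), the only call of the list there. At day 30, 3 were higher in each genotype, with Tpm3 in both (1.12 ± 0.16 and 0.82 ± 0.16). Of all genes, 15.6% were called higher in Q150X and 5.45% in WT then. WT library 3 of day 30 held skeletal Tnnt3 at 17.1 CPM and Myh1 at 14.9 CPM, where the other hearts held at most 3.13 and 0.507.

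Of 14 regulators of sarcomere genes, 1 was higher and 5 lower in Q150X hearts at day 7, and 1 and 3 in WT. Of all genes, 26.0% and 13.7% were called there. Myocd, the myocardin coactivator of serum response factor, fell by 1.64 ± 0.24 and 1.31 ± 0.24, and the related coactivator Mrtfb rose by 0.87 ± 0.16 and 0.68 ± 0.16. Mef2c fell too (-0.66 ± 0.14 and -0.61 ± 0.14), though in Q150X it reached 0 relative to other cardiomyocyte genes. At day 30, 1 was higher and 7 lower in Q150X, among them Mef2a (-0.79 ± 0.13), and 0 and 2 in WT. Relative to other cardiomyocyte genes 3 were higher and 0 lower in Q150X, with Mef2c (0.19), Mef2d (0.20) and Mrtfb (0.05) turned to the other side, and 0 were called in WT. At day 7 that scaling gave 5 and 1 in Q150X and 1 and 1 in WT. Cardiomyocytes at day 3 had 2 higher and 3 lower in Q150X and 0 and 3 in WT, which became 5 and 0 and 3 and 0. The M-CAT factor gene Tead1 was lower in both (-0.68 ± 0.11 and -0.58 ± 0.11), as was Myocd (-0.58 ± 0.17 and -0.70 ± 0.17).

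Markers of other cells moved with the same comparisons. The summed level of 12 cardiomyocyte genes outside the sarcomere was 19608 to 22313 CPM at day 7 and 17415 to 23658 CPM at day 30 in Q150X hearts, against 31364 to 39985 CPM at homeostasis. In WT it was 20175 to 25684 and 25481 to 30448.3 CPM, against 25744 to 34026 CPM. Of these 12, 7 fell in Q150X and 5 in WT at day 7, and 5 and 1 at day 30. Of all genes, 12.3% and 6.07% were called lower at day 7, and 14.2% and 3.49% at day 30. The sum of 8 fibroblast genes was 3092 to 5743 and 4449 to 7089 CPM at day 7 and day 30 in Q150X, against 801 to 1678 CPM at homeostasis. WT hearts had 1934 to 4808 and 2079 to 4102 CPM, against 898 to 1931 CPM, and 6 and 7 of the 8 rose in Q150X and 3 and 3 in WT. Of all genes, 13.8% and 15.6% were called higher in Q150X at day 7 and day 30, and 7.65% and 5.45% in WT. The sum of 7 myeloid genes was 435 to 1037 and 606 to 1652 CPM in Q150X, against 182 to 338 CPM, and 276 to 564 and 506 to 806 CPM in WT, against 241 to 352 CPM.

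Cardiomyocyte libraries shifted likewise. At day 3 the fibroblast sum was 517 to 908 CPM in Q150X and 409.7 to 723 CPM in WT, against 18.2 to 54.2 and 40.9 to 87.5 CPM at homeostasis. The myeloid sum was 102 to 251 and 93.2 to 177 CPM at day 3, against 2.30 to 3.87 and 3.999 to 11.4 CPM, and all 7 myeloid genes rose in both genotypes. Of the 12 cardiomyocyte genes outside the sarcomere, 9 fell and 1 rose in Q150X, and 7 fell and 1 rose in WT. Of all genes, 12.1% were called lower in Q150X cardiomyocytes and 7.22% in WT, and 14.9% and 10.1% higher. The part of these shifts in the members' changes was not tested, beyond the scaling to the 12 cardiomyocyte genes given above. Endothelial markers (8 genes) had 0 higher and 0 lower at day 7 and 0 and 3 at day 30 in Q150X hearts, and 0 and 1, then 0 and 3, in WT. At day 30, 14.2% of all genes were called lower in Q150X hearts and 3.49% in WT. Of 5 epicardial genes, 5 rose in Q150X and 3 in WT at day 30 (15.6% and 5.45% of all genes called higher). Among pericyte and smooth-muscle genes, Tagln was at most 1.42 CPM in any heart or cardiomyocyte library, but Myh11 stood at 29.4 to 122 CPM in hearts. The sum of that list was 737 to 1457 CPM in hearts and 414 to 769 CPM in cardiomyocytes.

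Endothelial libraries held low levels of most members. At homeostasis, however, Unc45b stood at 142 to 169 CPM there, against 140 to 191 CPM in cardiomyocytes. Pdlim3 stood at 59.8 to 88.7 CPM in endothelial libraries at homeostasis, against 7.05 to 10.2 CPM in cardiomyocytes. These endothelial libraries also held RNA of other cells. The smooth-muscle gene Myh11 stood at 504 to 894 CPM there and atrial Myl7 at 28.9 to 92.0 CPM. The sum of the pericyte and smooth-muscle list was 3816 to 5596 CPM. Which cells hold Unc45b and Pdlim3 was not tested. Ttn stood at 4.52 to 79.3 CPM and Actc1 at 4.52 to 289.6 CPM, with Q150X library 2 of day 3 lowest. That library held 330.3 CPM of the endothelial gene Pecam1, against 1060.2 to 3156 CPM in the other endothelial libraries. It also held 1958 CPM of the leukocyte gene Ptprc. The other endothelial libraries of day 3 held 237 to 539 CPM of Ptprc, and those of homeostasis 8.48 to 26.6 CPM. Ankrd1 stood at 1.99 to 102 CPM. Myot, at 0 to 1.74 CPM, was the lowest by its highest library.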

How the data were processed

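The deposited count table gives whole-number counts per Ensembl gene for 43 libraries, per the file headers, with no normalization by the authors. Per the submitters' processing notes, GRCm39, HISAT2 and kallisto were used; the sources used here do not give versions, the counter or the counting strand. Symbols and exon lengths came from GENCODE vM21 (build GRCm38), so no coordinates on the submitters' build are printed, and promoters from RefSeq.

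The members and gene lists were chosen with earlier results of these data known. Each compartment had 1 fit in edgeR 4.0.16 (R 4.3.3; TMM, quasi-likelihood, robust), with genes kept by a count minimum of 10 and a total of 15, 17845 in hearts, 15169 in cardiomyocytes and 18223 in endothelial cells, which were used for levels only. P-values were adjusted by Benjamini and Hochberg over all genes of a compartment, and errors are SE of log2 fold changes. DESeq2 1.42.0, voom (limma 3.58.1), other scalings, no filter, a replicate block, fits of the compared groups alone and leaving out libraries were alternatives. The test was checked on simulated counts. Named genes were the members past the threshold (the 14 with the largest change in full, where more passed), the 3 smallest p where fewer than 3 passed, and for other lists up to 3 in each direction. No 2 libraries of a group held the same values. In deviations from the group mean, same-numbered Q150X and WT hearts at homeostasis correlated at 0.59, 0.31 and 0.33. The other sets gave -0.22 to 0.084. Libraries 1 of both genotypes held atrial Myl7, and libraries of different number were not compared. This check therefore cannot settle whether same-numbered homeostasis hearts are paired or share a batch, and the labels give no pairing. The main fit treats them as unpaired. Depth is given in the report; intervals cover the spread between libraries only. Nuclear RNA-seq of the series was not used here. One gene of the other sarcomere list is not reported here.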

Additional observations from a re-analysis of the deposited data

Results flagged for a closer look

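In groups of 4 hearts, 10 of 117 member and group pairs had a library far from the other 3 by Dixon's criterion, which chance gives in about 1 of 20 groups (5.85 expected). The same 3 libraries held 9 of them. Q150X library 1 of day 7 was high for the intercalated-disc gene Xirp2, at 1059.8 CPM where the others held 377 to 463 CPM. It was also high for Xirp1, at 346 CPM (others 229 to 241 CPM), and for Synpo2l, at 151 CPM (others 47.9 to 58.7 CPM). Q150X library 3 of day 30 was low for Tnnt2, at 2629 CPM (others 3438 to 3590.4 CPM), for Tcap, at 709.9 CPM (others 1153 to 1198 CPM), and for Fhl2, at 948 CPM (others 1131 to 1156 CPM). WT library 2 of day 7 was low for Tnnt2, at 4279 CPM (others 5389.6 to 5482 CPM), for Tnni3, at 2188 CPM (others 2926 to 3012 CPM), and for Tcap, at 566 CPM (others 1041 to 1134 CPM). WT library 3 of day 7 was high for Nexn, at 508 CPM, where the others held 428 to 435 CPM.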

How the results depend on the processing

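Of 1310 gene values under settings other than leaving out 1 library, 1160 kept direction and side of the threshold, 95 lost and 30 gained a call, and 25 turned. Scaling to other cardiomyocyte genes turned Ttn (0.11 in Q150X and 0.27 in WT) and Acta1 (0.27 and 0.027) at day 7. At day 30 it turned Tmod1 (0.015), Trim63 (0.023), Tnni3 (0.036), Trim55 (0.044), Ldb3 (0.076) and Actc1 (0.23) in Q150X and Actc1 (0.075) in WT, and for day 30 against day 7 Acta1 in WT (-0.074). In cardiomyocytes it turned Mypn (0.0081), Trim63 (0.024), Nrap (0.089), Unc45b (0.12) and Actc1 (0.37) in Q150X, and Unc45b (0.049) and Myom1 (0.065) in WT; library size alone turned Myom1 in WT (0.020) and Actc1 in Q150X (0.068). Voom turned Acta1 in Q150X at day 7 (0.13), as did leaving out the libraries that stand apart (0.32), which also turned Acta1 in WT for day 30 against day 7 (-0.11).

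Counts of members called moved by over 1.5 times as follows. The share of all genes called moves with the setting too. For Q150X against WT hearts at day 30 it was 0.443% by edgeR, 2.49% by DESeq2 and 9.81% by voom. For most other settings, here and below, that share is not given. Such counts therefore show how far the fit matters and are no result about the members alone. WT at day 7 (10) became 20 under scaling to other cardiomyocyte genes and 22 by voom. Q150X at day 7 (17) became 11 with the compared groups alone. WT at day 30 (2) became 1 under scaling to other cardiomyocyte genes, with no filter and with the compared groups alone, 12 by voom and 11 without the libraries that stand apart. Q150X at day 30 (19) became 11 by library size, as did Q150X cardiomyocytes (21). WT day 30 against day 7 (11) became 18 under scaling to other cardiomyocyte genes, 21 by voom and 18 with the compared groups alone. Q150X against WT at day 30 (0) became 2 by DESeq2, 4 by voom and 2 without the libraries that stand apart, and cardiomyocytes at homeostasis (0) became 1 with no filter.

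A replicate block in the compared groups alone gave 8 in Q150X at day 7, 6 in Q150X and 1 in WT at day 30, 21 in WT for day 30 against day 7, 2 for Q150X against WT at day 30, and Acta1 at -0.11 in WT for day 30 against day 7. A replicate block over all groups gave 1 in WT at day 30. For Q150X against WT in hearts at homeostasis the block called 0, as did the fit without it. Same-numbered libraries are not known to be paired in any set.

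Leaving out 1 library gave 14 to 18 members called in Q150X and 9 to 12 in WT at day 7, 14 to 18 and 1 to 7 at day 30, 12 to 16 and 6 to 11 for day 30 against day 7, 13 to 21 and 7 to 14 in cardiomyocytes, and 0 to 2 for Q150X against WT at day 30. The lowest came without WT day 30 library 1 or 3 (6), WT cardiomyocyte day 3 library 1 (7) and Q150X cardiomyocyte day 3 library 3 (13). Without 1 library, the changes of both actins that turned, none of them called, ranged from -1.02 to 0.32 for Acta1 in Q150X at day 7, from -0.12 to 0.038 for Actc1 and -0.34 to 0.027 for Acta1 in WT at day 30, from -0.11 to 0.40 for Acta1 in WT for day 30 against day 7, and from -0.063 to 0.25 for Actc1 in WT cardiomyocytes. It also turned differences in the Acta1 share that passed no test. In percentage points these ranged from -0.462 to 0.0496 for WT at day 30 against homeostasis, and for Q150X against WT from -1.14 to 0.0781 in hearts at homeostasis, -1.17 to 0.677 in hearts at day 7 and -0.659 to 0.837 in cardiomyocytes at homeostasis. The cause of these changes was not tested.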
